A study of Mus musculus with 56 samples.

Results

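The mitochondrial ribosomal protein genes, named Mrpl for the large subunit and Mrps for the small one, were followed across every group of a titin cutting experiment in mouse muscle. They were the rows of the normalised count table whose name is Mrpl or Mrps followed by a number, which 79 rows met. Dropping 1 pseudogene row left 78 of the 14870 genes in the table, and all 78 passed the filter on low values that left 13017 genes for testing. By their known place in the particle, 51 encode large subunit proteins and 26 encode small subunit proteins. Mrps30 and Mrps18a carry small subunit names but sit in the large subunit, and Mrps36 is a component of the 2-oxoglutarate dehydrogenase complex, not of the ribosome. Of the 77 ribosomal members, 46 have a counterpart in the bacterial ribosome and 31 are specific to mitochondria. The 78 genes lie on 17 chromosomes.

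The mitochondrial ribosome is a separate ribosome inside the mitochondrion. Its RNAs come from the mitochondrial DNA, while its proteins are encoded in the nucleus, made in the cytoplasm and imported. It makes only the few membrane proteins that the mitochondrial DNA encodes, all of them subunits of the respiratory chain and ATP synthase. Skeletal muscle is rich in mitochondria, and its ribosomal protein genes are transcribed by general nuclear factors that also serve other mitochondrial genes.

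Messenger RNA was sequenced in bulk from tibialis anterior, a muscle at the front of the lower leg. Mice were homozygous (HOM) or heterozygous (HET) for the titin mechanical knock-out allele, mKO, or wild type (WT). Titin is the giant protein that spans from the edge to the middle of the sarcomere, and the mKO allele places a cutting site for the tobacco etch virus (TEV) protease in it. Muscles received saline or an adeno-associated virus (AAV) from which they make TEV protease joined to green fluorescent protein. HOM muscle gave 4, 5 and 4 AAV samples at 3, 7 and 21 days post injection (dpi), with 4 saline samples each day. HET muscle was sampled at 7 dpi only, with 4 AAV and 4 saline samples. WT muscle gave 5, 4 and 4 AAV samples and 3, 3 and 4 saline samples at 3, 7 and 21 dpi. The labels used here give no strain, age or sex, and no promoter for the transgene. Nor do they state if each sample is a different animal, and p-values therefore measure only the spread between these samples, which may be partly technical. WT titin carries no site for the protease, and WT AAV muscle thus received the virus and the protease without a target in titin. No group was injected with a virus lacking the protease among those used here.

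The 56 libraries held 6.9 M to 27.18 M reads with a median of 21.69 M. The library with 6.9 M was HOM AAV replicate 2 at 7 dpi, and the next lowest held 14.98 M. The transgene averaged 49.4, 22.4 and 640 normalised counts in HOM AAV muscle at 3, 7 and 21 dpi, 86.6 in HET AAV muscle at 7 dpi, and 17.2, 240 and 756 in WT AAV muscle, against 0.28 at most in any saline group. Mature fast fibre genes, which mark this muscle, summed to between 65749 and 193067 normalised counts in every HOM library at 21 dpi. Values are given on the deposited scale, counts normalised to an effective library size that came with the authors' normalization (a per-million scale). On that scale the columns do not sum to the same total, but to between 669815 and 1164855. Dividing each column by its own total, here called the column-total scale, moved the log2 change of the median gene between AAV and saline muscle up by 0.24, 0.33 and 0.50 in HOM at 3, 7 and 21 dpi, by 0.24 in HET and by 0.28 in WT at 21 dpi. That shift was as large as the change of many members, so the counts of called members below are given on both scales, each beside the share of all tested genes.

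Promoters of 69 of the 78 members were found by symbol in the RefSeq table (GRCm38.p6), and the 250 bases before each start were searched on both strands. CCGGAAG, a core of the sites of ETS family factors such as GABP, occurred in 17 member promoters, or 24.6%, against 7.05% of all 27018 promoters. The site of nuclear respiratory factor 1, written as GCGCA, any base and GCGC, occurred in 10, or 14.5%, against 3.86% of all. AAGATGGCG, a site of the factor YY1, occurred in 2, or 2.9%, against 0.607% of all. Any of these sites was present in 28 member promoters, or 40.6%, against 10.8% of all promoters, and the motifs can share bases where they meet. The 27018 promoters outnumber the 14870 genes in the table, and no set limited to the tested genes was searched. Member promoters had a median GC content of 58.4%, against 52% over all. Promoters are shown for the members with the largest fall on each HOM day and the largest rise in HOM and in HET muscle at 7 dpi. The changes described below differ in direction between them. Capitals mark CCGGAAG or its reverse complement.
Mrpl34: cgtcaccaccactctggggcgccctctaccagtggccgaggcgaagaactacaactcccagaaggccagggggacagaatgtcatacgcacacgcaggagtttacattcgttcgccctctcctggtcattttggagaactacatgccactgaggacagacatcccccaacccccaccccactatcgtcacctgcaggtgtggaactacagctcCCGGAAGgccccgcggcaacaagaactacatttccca
Mrps27: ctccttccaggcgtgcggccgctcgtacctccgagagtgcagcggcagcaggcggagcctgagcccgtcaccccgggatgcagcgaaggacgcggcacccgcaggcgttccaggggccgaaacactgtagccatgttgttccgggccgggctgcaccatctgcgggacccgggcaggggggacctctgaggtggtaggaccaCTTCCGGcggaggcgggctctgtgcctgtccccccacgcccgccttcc
Mrpl42: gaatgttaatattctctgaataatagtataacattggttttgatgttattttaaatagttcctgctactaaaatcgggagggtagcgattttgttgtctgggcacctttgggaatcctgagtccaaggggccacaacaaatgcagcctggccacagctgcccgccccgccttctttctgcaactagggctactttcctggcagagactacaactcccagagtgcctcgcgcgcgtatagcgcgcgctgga
Mrpl52: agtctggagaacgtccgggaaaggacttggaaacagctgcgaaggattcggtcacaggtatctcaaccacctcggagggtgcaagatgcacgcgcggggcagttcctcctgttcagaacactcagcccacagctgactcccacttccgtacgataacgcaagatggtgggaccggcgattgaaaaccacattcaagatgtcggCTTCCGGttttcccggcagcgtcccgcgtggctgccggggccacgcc
Mrps12: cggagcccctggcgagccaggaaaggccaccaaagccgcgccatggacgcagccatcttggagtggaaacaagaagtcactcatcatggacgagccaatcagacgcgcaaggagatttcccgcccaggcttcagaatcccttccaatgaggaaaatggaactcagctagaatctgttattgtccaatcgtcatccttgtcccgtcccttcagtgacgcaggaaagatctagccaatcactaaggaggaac
These windows are chr8:71464676-71464925 on the plus strand for Mrpl34, chr13:99344536-99344785 on the plus strand for Mrps27, chr10:95501950-95502199 on the minus strand for Mrpl42, chr14:54426659-54426908 on the plus strand for Mrpl52 and chr7:28741822-28742071 on the minus strand for Mrps12. Mrpl34, which had the largest fall at 3 dpi, Mrps27, which had the largest at 7 dpi, and Mrpl52, which had the largest rise at 7 dpi in HOM muscle, each hold the CCGGAAG motif. Mrpl42, with the largest fall at 21 dpi, and Mrps12, with the largest rise in HET muscle, hold none of the motifs in the window. GC content ran from 49.2% in Mrpl42 to 71.6% in Mrps27. Among the 44 matched members that fell at 21 dpi on the deposited scale, 38.6% held any of the motifs, against 44% of the other 25.

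Levels were uneven across the particle's genes, although each ribosome holds its proteins in fixed numbers. In WT saline muscle the highest mean levels were those of Mrpl42 at 169, Mrpl51 at 95.2, Mrpl12 at 87.4, Mrpl30 at 75.7 and Mrpl18 at 72.5 normalised counts. Per kilobase of exon the order changed, with Mrps21 at 75.3, Mrpl12 at 57, Mrpl18 at 51.8 and Mrpl42 at 45.8 normalised counts per kilobase. The lowest per kilobase were Mrpl23 at 0.859, Mrps35 at 2.17 and Mrps10 at 3.01. Length here joins all annotated exons of a gene, so exons not used in muscle lower its value per kilobase. Mrpl12 forms the flexible stalk of the large subunit, and its human protein also binds the mitochondrial RNA polymerase. Mrpl42 and Mrpl51 are mitochondria-specific proteins of the large subunit.

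In HOM muscle at 3 dpi, AAV samples had lower levels of many large subunit genes than saline samples. Of the 78 members 28 fell and 0 rose on the deposited scale, beside 17.2% of all tested genes that fell and 17.4% that rose. On the column-total scale 1 fell and 18 rose, beside 4.71% and 40.4% of all genes, a smaller share of members than of all genes rising. The members' median log2 change was -0.19 against -0.01 for all genes on the deposited scale, and on the column-total scale it lay 0.15 below the median of all genes, with 60 of 78 members under that median. The fall was 24 of 51 for the large subunit, 3 of 26 for the small subunit, and Mrps36, while genes with a bacterial counterpart gave 16 of 46 and mitochondria-specific genes 11 of 31, all on the deposited scale. With the column-total scale the large subunit had 1 fall and 9 rises and the small subunit 0 and 9. In these bulk samples fewer cells of a type and less RNA per cell cannot be told apart.

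Mrpl34, a large subunit protein with a bacterial counterpart (chr8:71464959-71465747, plus strand), had 16.9, 11, 11.3 and 17.8 normalised counts in HOM AAV muscle at 3 dpi, against 21.7, 20.3, 17.6 and 25.2 in HOM saline muscle. AAV replicates 2 and 3 were the low ones, and the highest AAV value just passed the lowest saline value. Its log2 change was -0.56 (SE 0.13, adjusted p = 8.18e-04), and it was the only member that fell on both scales at 3 dpi. Mrpl3, another large subunit protein with a bacterial counterpart (chr9:105053239-105079888, plus strand), had 33.8, 32.5, 28 and 34.8 in HOM AAV muscle, against 42.7, 40.6, 42.1 and 43.6 in HOM saline muscle. Every AAV sample lay below every saline sample, with a log2 change of -0.38 (SE 0.08, adjusted p = 4.03e-04) on the deposited scale. Mrpl3 shares 248 exon bases with another listed gene on the same strand, so its reads, here and below, cannot be assigned with certainty. Mrps36 changed by -0.41 (SE 0.12, adjusted p = 0.00702), Mrpl18, which has a bacterial counterpart, by -0.38 (SE 0.10, adjusted p = 0.00229), and Mrpl42 by -0.37 (SE 0.11, adjusted p = 0.00588). Smaller falls on the deposited scale included Mrpl2 at -0.36, Mrpl49 at -0.34, Mrpl47 at -0.34, Mrpl41 at -0.31 and Mrpl12 at -0.31. The call of Mrpl47 was lost without AAV replicate 3, that of Mrpl41 without AAV replicate 2 or saline replicate 3 or 4, and that of Mrpl12 without AAV replicate 2 or 3 or saline replicate 4. The AAV and saline samples did not overlap for 19 members, all lower, where 13.4% of all genes were lower without overlap. Without AAV replicate 3 the count of members called dropped to 18, and with only the HOM groups at 3 dpi in the fit it was 13.

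At 7 dpi HOM muscle showed changes in both directions among the same family. Here 28 members fell and 9 rose on the deposited scale, beside 22.5% of all tested genes that fell and 20.6% that rose, whereas on the column-total scale 2 fell and 46 rose, beside 5.98% and 53.2% of all genes. The median log2 change of the members was -0.07, and on the column-total scale it lay 0.03 below that of all genes, with 42 of 78 members under it. The large subunit had 19 falls and 6 rises of 51 on the deposited scale, and the small subunit 8 falls and 3 rises of 26. Falls came to 15 of 46 members with a bacterial counterpart and 12 of 31 mitochondria-specific members, and rises to 6 and 3, on the same scale. With the column-total scale the large subunit had 0 falls and 30 rises and the small subunit 2 and 16. The AAV and saline samples did not overlap for 23 lower and 7 higher members, beside 17.0% and 16.6% of all genes.

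Mrps27, a mitochondria-specific small subunit protein of the pentatricopeptide repeat family of RNA-binding proteins (chr13:99344786-99415562, plus strand), fell most. It had 16.3, 14.9, 14.9, 13.6 and 15.3 normalised counts in HOM AAV muscle at 7 dpi, against 29.8, 27.4, 24.4 and 24.2 in HOM saline muscle. The 5 AAV samples were close together and far below the saline samples, and the log2 change was -0.78 (SE 0.11, adjusted p = 1.52e-07). Mrps9, a small subunit protein with a bacterial counterpart (chr1:42851233-42905683, plus strand), had 20.7, 16.6, 20.6, 17.1 and 19.8 in HOM AAV muscle, against 29.3, 27.7, 26.9 and 31 in HOM saline muscle. The groups were again apart, with a log2 change of -0.58 (SE 0.08, adjusted p = 4.44e-07). These were the only members that fell on both scales at 7 dpi, by -0.41 for Mrps27 and -0.21 for Mrps9 on the column-total scale. Mrps35, of the small subunit, changed by -0.55 (SE 0.11, adjusted p = 4.83e-05) on the deposited scale, and the large subunit genes Mrpl47 by -0.53, Mrpl1 by -0.52, Mrpl3 by -0.50 and Mrpl50 by -0.43. Mrpl3 had 27.9, 29.1, 28.1, 29 and 28.8 in HOM AAV muscle, against 41.6, 40.3, 38.7 and 42.8 in HOM saline muscle. Its AAV samples spanned little more than 1 normalised count and lay well under every saline sample. Mrpl12 changed by -0.28 (SE 0.10, adjusted p = 0.0251) on the deposited scale and by 0.09 on the column-total scale, a change of sign, and its call was lost without saline replicate 1 or AAV replicate 1 or 4.

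All 9 members that rose in HOM muscle at 7 dpi on the deposited scale also rose on the column-total scale. Mrpl52, a mitochondria-specific large subunit protein (chr14:54426909-54429756, plus strand), had 16.4, 19.4, 16.9, 17 and 19.3 normalised counts in HOM AAV muscle, against 12.8, 9.86, 12 and 12.6 in HOM saline muscle. Every AAV sample exceeded every saline sample, with a log2 change of 0.56 (SE 0.10, adjusted p = 3.30e-05). Mrpl57, also mitochondria-specific (chr14:57826234-57829296, plus strand), had 17.5, 24.3, 19.5, 19.6 and 21.7 in HOM AAV muscle, against 13.8, 13.3, 15.1 and 15.5 in HOM saline muscle, a log2 change of 0.47 (SE 0.12, adjusted p = 0.00196). Mrps12, which lies at the decoding centre of the small subunit (chr7:28739641-28741820, minus strand), had 26, 29.7, 30.4, 28.2 and 27.1 in HOM AAV muscle, against 23.7, 19.1, 23.4 and 17.5 in HOM saline muscle. Its groups were apart as well, with a log2 change of 0.43 (SE 0.11, adjusted p = 9.93e-04). Mrpl53 at 0.41, Mrps18c at 0.38, Mrpl33 at 0.28, Mrpl36 at 0.27 and Mrpl20 at 0.24 completed the 8 largest rises, and the call of Mrpl20 was lost without saline replicate 3 or 4 or AAV replicate 2 or 5. Mrpl33, Mrpl36 and Mrpl20 have bacterial counterparts in the large subunit. Mrpl53 overlaps another listed gene on the same strand, so its reads cannot be assigned with certainty.

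**Figure D1:**
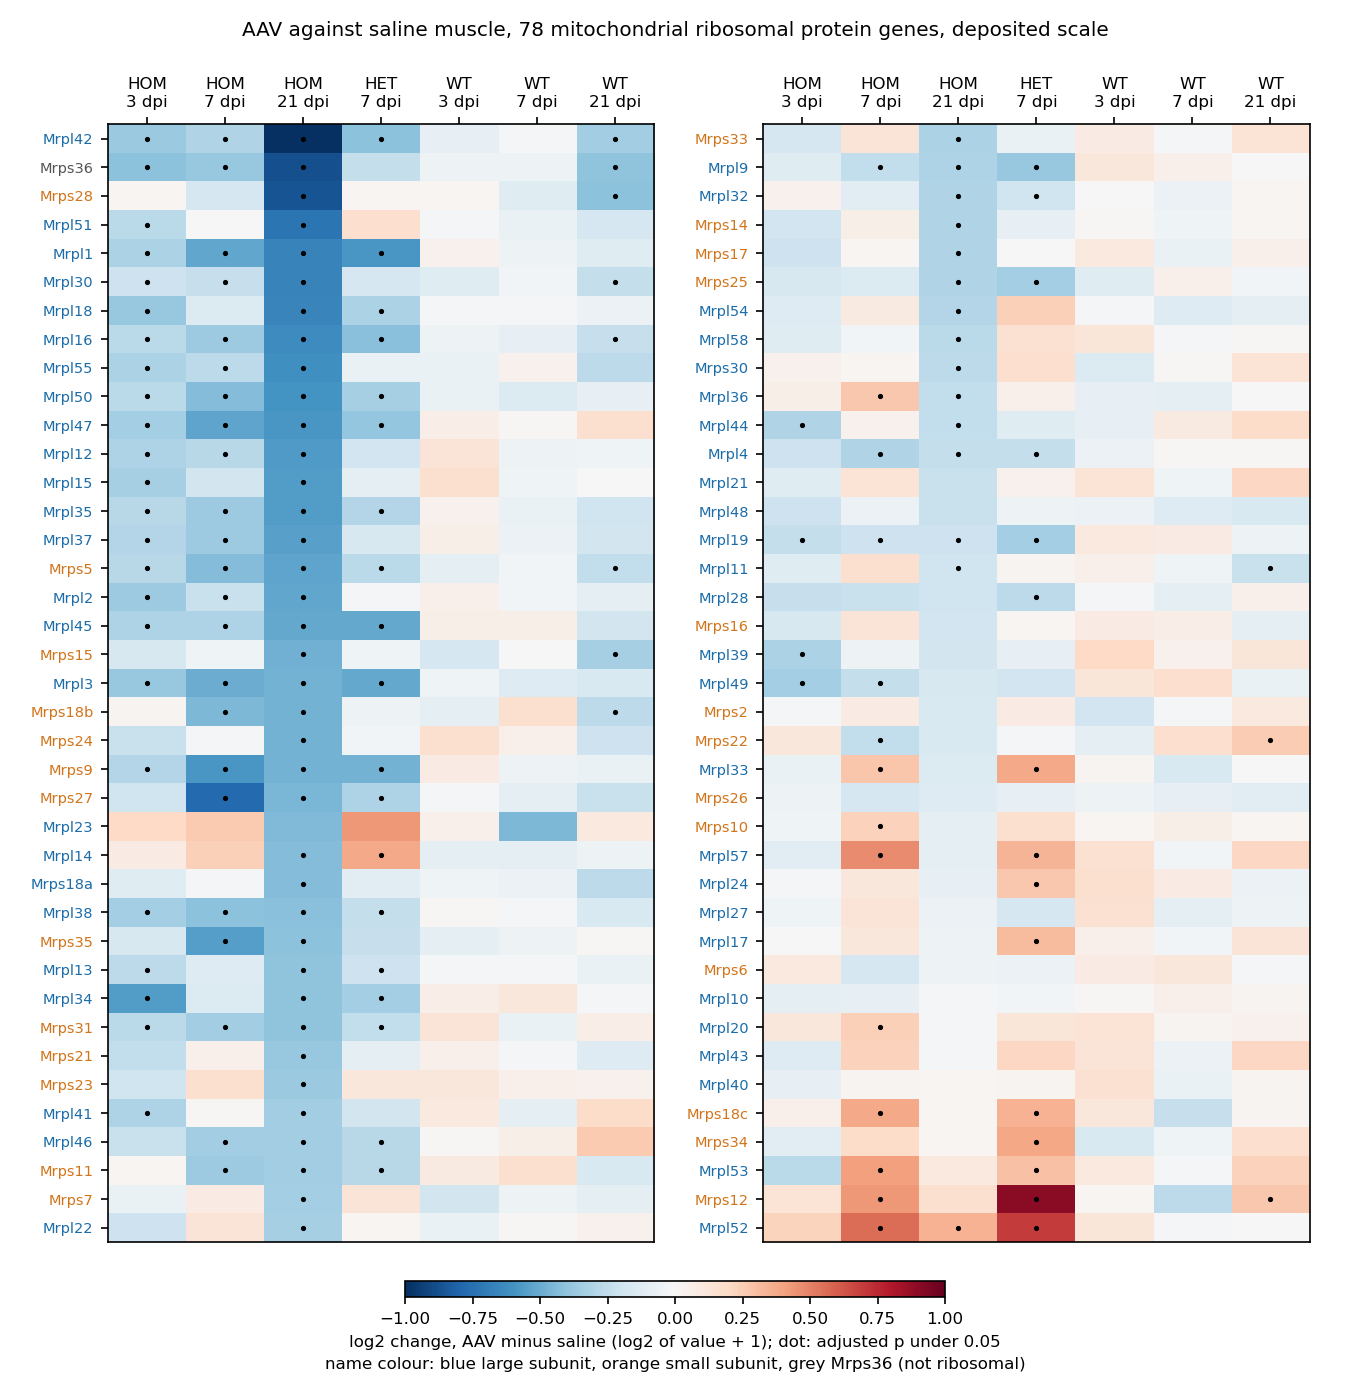
Heat map of the log2 change of each of the 78 genes (rows) in AAV minus saline muscle, on log2(normalised count + 1), for HOM, HET and WT muscle by day (columns); rows are ordered by the HOM change at 21 dpi, dots mark adjusted p under 0.05, and name colour gives the subunit. On this deposited scale the HOM 21 dpi column holds 52 dotted falls and 1 dotted rise, while on the column-total scale it would hold 4 falls and 39 rises, where 65.6% of all genes rise.

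By 21 dpi most members were lower in HOM AAV muscle than in HOM saline muscle on the deposited scale. There 52 of 78 members fell and 1 rose, beside 29.6% of all tested genes that fell and 29.7% that rose, whereas on the column-total scale 4 fell and 39 rose, beside 8.61% and 65.6% of all genes, again a smaller share of members than of all genes rising. With the replicate number as a block and only these groups in the fit, since same-numbered samples deviated together here, 34 fell and 1 rose on the deposited scale, and with only these groups and no block 36 fell and 1 rose. The median member changed by -0.33, and on the column-total scale the members' median lay 0.29 below that of all genes, with 69 of 78 members under it. The falls were 34 of 51 in the large subunit, 17 of 26 in the small subunit, and Mrps36. By origin, 31 of 46 members with a bacterial counterpart and 20 of 31 mitochondria-specific members fell on the deposited scale. With the column-total scale the large subunit had 2 falls and 26 rises and the small subunit 1 and 13. The samples did not overlap for 34 lower members and 1 higher member, beside 22.5% and 21.5% of all genes.

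Mrpl42 (chr10:95480805-95501940, minus strand), which had the highest normalised counts of the members before correction for length, fell most. It had 62.8, 76.8, 70.9 and 111 normalised counts in HOM AAV muscle at 21 dpi, against 155, 153, 164 and 167 in HOM saline muscle. AAV replicate 4 stood above the other AAV samples, and all of them were below saline. The log2 change was -1.01 (SE 0.11, adjusted p = 7.60e-11). Mrps28, a small subunit protein (chr3:8802146-8923918, minus strand), had 13.4, 17.3, 14 and 21.9 in HOM AAV muscle, against 31.1, 26.9, 33.1 and 31.1 in HOM saline muscle, a log2 change of -0.86 (SE 0.11, adjusted p = 2.96e-09). Mrpl51 (chr6:125191801-125196269, plus strand) had 49.6, 54, 50.3 and 68.6 in HOM AAV muscle, against 91.1, 97.9, 89.4 and 90.8 in HOM saline muscle, a log2 change of -0.73 (SE 0.09, adjusted p = 8.78e-10). In each of these genes replicate 4 was again the highest AAV sample, and no AAV sample reached the saline range.

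Mrps36, the dehydrogenase component (chr13:100735955-100744659, minus strand), fell by more than the members' median change of -0.33 on the deposited scale. On the column-total scale it fell as well, where the members' median change was 0.21. It had 23.9, 25.9, 25.4 and 40.5 in HOM AAV muscle at 21 dpi, against 51.4, 53.1, 52.7 and 55.3 in HOM saline muscle, a log2 change of -0.88 (SE 0.12, adjusted p = 2.18e-08). Mrpl42, Mrpl51, Mrps28 and Mrps36 were the 4 that fell on both scales, by -0.46, -0.18, -0.32 and -0.34 on the column-total scale. Mrpl1 changed by -0.67 (SE 0.11, adjusted p = 5.08e-07) on the deposited scale, Mrpl30 by -0.67, Mrpl18 by -0.66 and Mrpl16 by -0.63. Mrpl1, which in bacteria forms a mobile stalk near the tRNA exit site (chr5:96209493-96266727, plus strand), had 15.6, 17.6, 20.5 and 22.6 in HOM AAV muscle, against 30, 31.6, 30.7 and 30.7 in HOM saline muscle. No AAV sample of Mrpl1 came near the saline range. Mrpl12 had 50.2, 44.2, 43.2 and 66.9 in HOM AAV muscle, against 80.4, 75.2, 72 and 73.7 in HOM saline muscle, a log2 change of -0.57 (SE 0.11, adjusted p = 2.02e-05).

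Mrpl52 was the exception at 21 dpi. It had 17.5, 14.1, 14.7 and 15.6 normalised counts in HOM AAV muscle, against 12.2, 11.4, 11.7 and 12.4 in HOM saline muscle, with every AAV sample higher. Its log2 change was 0.35 (SE 0.11, adjusted p = 0.00641) on the deposited scale and 0.87 on the column-total scale. After quantile normalization it was 0.21 and no longer called.

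**Figure D2:**
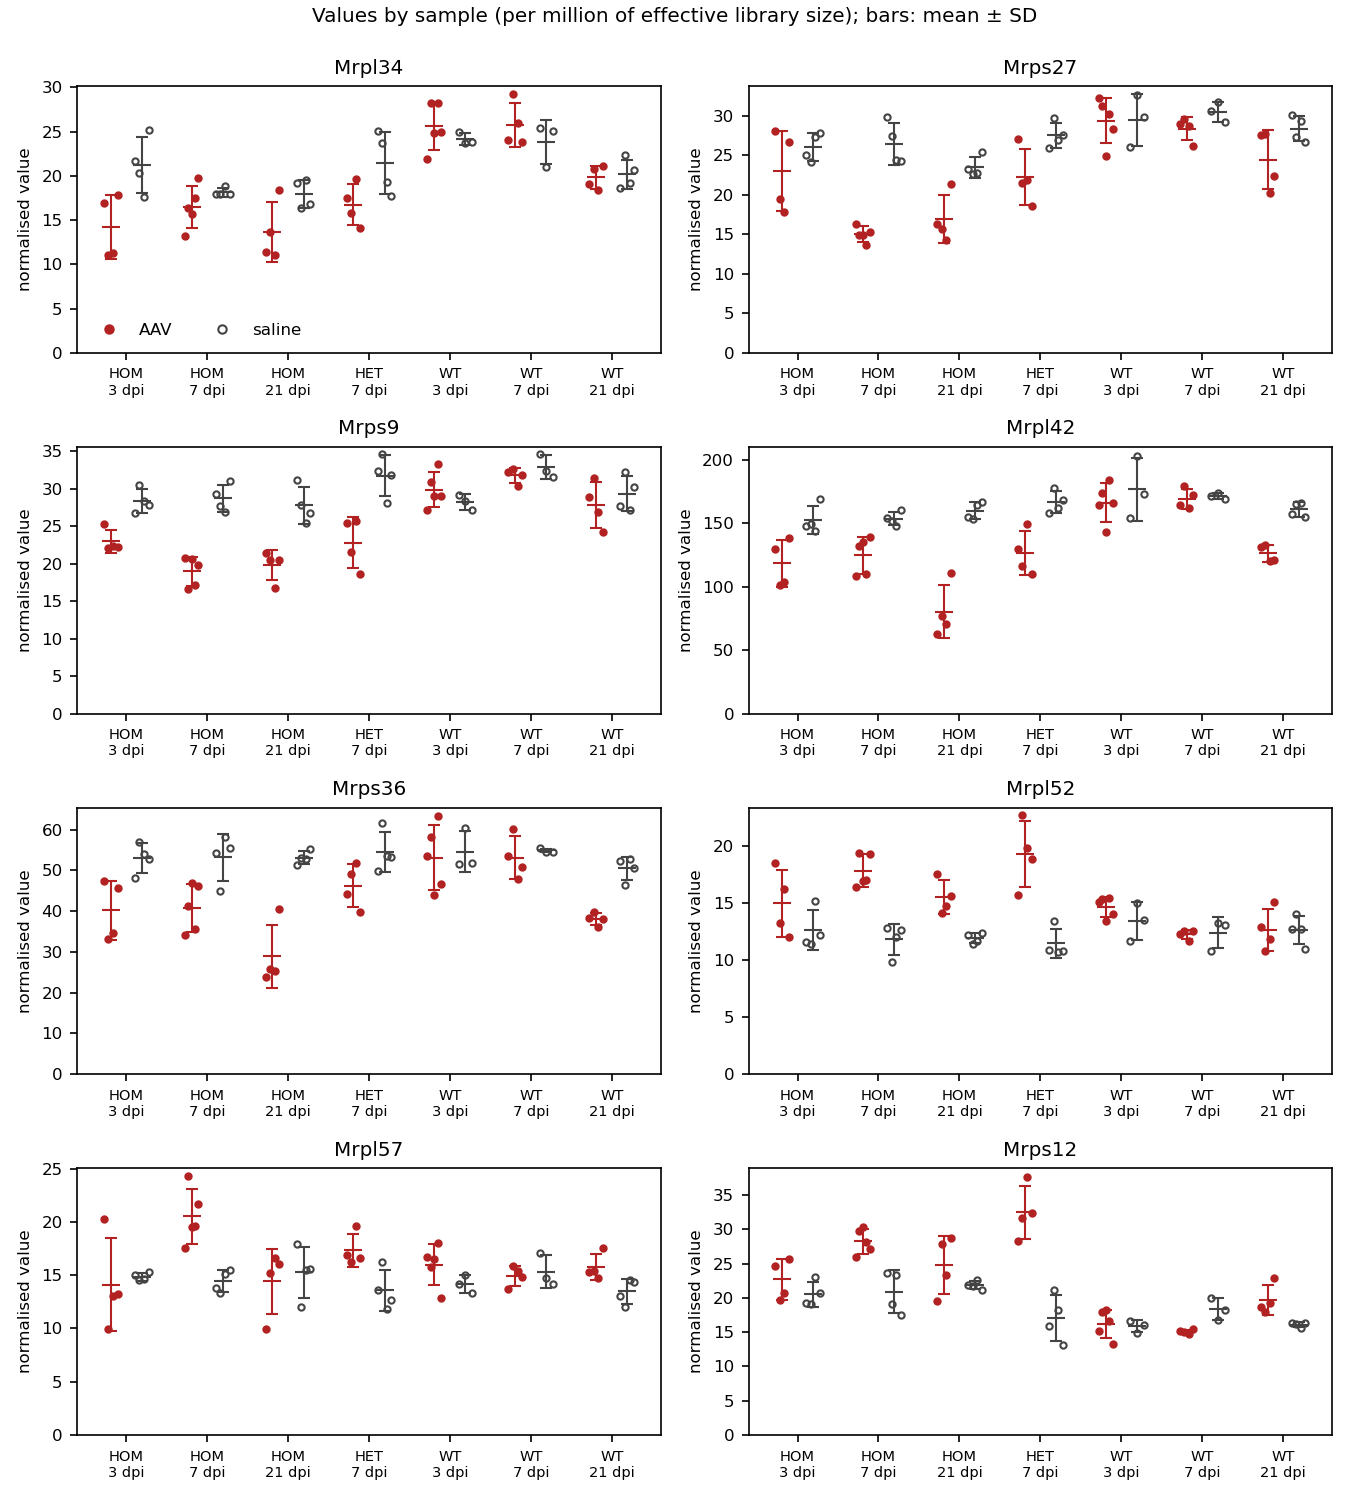
Normalised counts (deposited scale, y axis, from 0) of 8 named genes in every sample, by genotype and day, with AAV (filled red) left of saline (open grey) and bars for mean ± SD. Mrpl42 and Mrps36 are lowest in HOM AAV muscle at 21 dpi and Mrps27 in HOM AAV muscle at 7 dpi, while Mrpl52 is higher in AAV than in saline muscle of HOM mice at 7 and 21 dpi.

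Across the 3 HOM days, which share no samples, 19 members fell each day on the deposited scale, as did 10.7% of all tested genes. They were Mrpl1, Mrpl2, Mrpl3, Mrpl12, Mrpl16, Mrpl19, Mrpl30, Mrpl35, Mrpl37, Mrpl38, Mrpl42, Mrpl45, Mrpl47, Mrpl50 and Mrpl55 of the large subunit, Mrps5, Mrps9 and Mrps31 of the small subunit, and Mrps36. Another 15 fell on 2 of the days and 21 on 1 day. The 28 that fell at 3 dpi and the 52 that fell at 21 dpi shared 26, or 92.9% of the earlier and 50% of the later list, and the 28 that fell at 7 dpi also shared 26 with 21 dpi. Of the 2245 genes of all tested that fell at 3 dpi, 1811 also fell at 21 dpi, which is 13.9% of all tested. Of the 2929 that fell at 7 dpi, 2406 also fell at 21 dpi, or 18.5% of all tested. Most genes that fell early thus also fell at 21 dpi, whether or not they were members. On the column-total scale none of the 78 fell on every day, since the only call at 3 dpi, Mrpl34, was not among those at 7 dpi. The other 15 members were called on no HOM day on the deposited scale, among them Mrpl10, Mrpl17, Mrpl23, Mrps2, Mrps6 and Mrps34.

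The difference between days was tested as the change of the AAV response. From 3 to 7 dpi in HOM muscle 2 of 78 members had a higher response and 2 a lower one, near the shares of 2.80% and 3.16% of all genes. The higher ones were Mrpl53 (0.68, SE 0.16, adjusted p = 0.0067) and Mrpl57 (0.58, SE 0.18, adjusted p = 0.0419), and the lower ones Mrps27 (-0.58, SE 0.15, adjusted p = 0.0157) and Mrps18b (-0.48, SE 0.13, adjusted p = 0.0183). With the column-total scale there were 7 higher and 2 lower, beside 4.73% and 1.83%. The count of 4 was 2 without HOM saline replicate 2 at 3 dpi or HOM saline replicate 1 at 7 dpi, 7 without HOM AAV replicate 1 at 3 dpi, and 1 with only the groups compared in the fit. From 7 to 21 dpi 19 members had a lower response and 0 a higher one on the deposited scale, beside 6.27% and 7.54% of all genes, whereas on the column-total scale 7 were lower and 1 higher, beside 2.92% and 13.3%. Mrpl51 changed by -0.73 (SE 0.12, adjusted p = 2.77e-05), having had 83.3, 97.3, 90.3, 83.4 and 97.6 in HOM AAV muscle at 7 dpi, against 100, 89.9, 85.6 and 85.2 in HOM saline muscle, so that those groups overlapped. Mrpl42 changed by -0.71 (SE 0.15, adjusted p = 9.67e-04), Mrps28 by -0.69 (SE 0.15, adjusted p = 0.00107), Mrpl14 by -0.67 (SE 0.21, adjusted p = 0.0285) and Mrps36 by -0.50 (SE 0.16, adjusted p = 0.0333). Both contrasts use the 7 dpi samples. The count of 19 became 8 without HOM AAV replicate 1 at 21 dpi, between 11 and 12 without HOM saline replicate 2 at 7 dpi or replicate 3 of HOM AAV at 7 or at 21 dpi, and 30 without HOM AAV replicate 4 at 21 dpi, and it was 6 with only the groups compared in the fit.

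Of the 9 members that rose at 7 dpi, only Mrpl52 was called higher at 21 dpi on the deposited scale, and 7 were not called then. Mrpl36, the remaining one, was called in both directions on the deposited scale. It had 23.5, 28.8, 26.3, 24.4 and 24.8 in HOM AAV muscle at 7 dpi, against 20, 21.2, 22.3 and 20.2 in HOM saline muscle. At 21 dpi it had 17.7, 17.1, 17.2 and 17.9 in HOM AAV muscle, against 23.9, 21, 21.4 and 18.1 in HOM saline muscle, a log2 change of -0.25 (adjusted p = 0.00595). Its AAV samples were thus above saline at 7 dpi and below it at 21 dpi. After division by the column total Mrpl36 rose on both days, by 0.64 at 7 dpi and 0.28 at 21 dpi. On that scale 39 of the 78 members rose at 21 dpi.

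**Figure D3:**
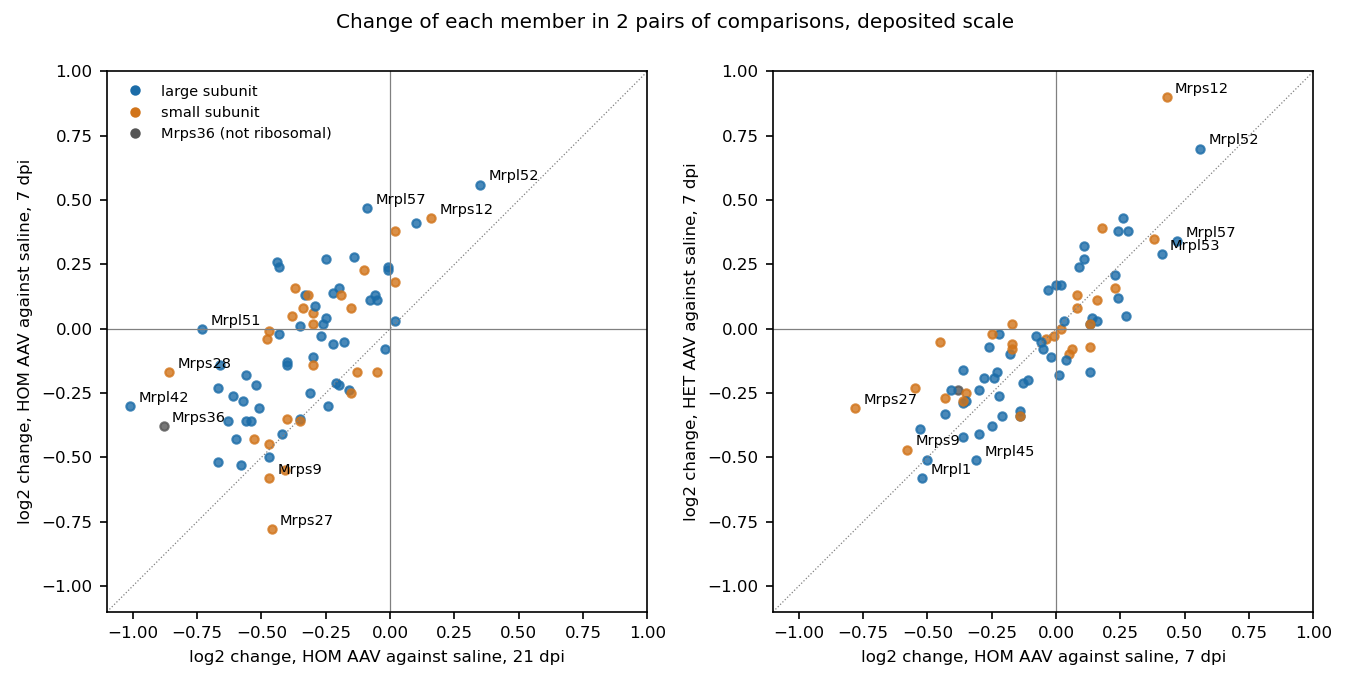
Log2 change (AAV minus saline, log2 of normalised count + 1) of each of the 78 genes in HOM muscle at 21 dpi (x) against 7 dpi (y) on the left, and in HOM muscle (x) against HET muscle (y) at 7 dpi on the right; colours give the subunit, the dotted line equal change. On the deposited scale most points on the left lie above the dotted line and Mrpl52 lies in the upper right of both panels; on the column-total scale all points move up and to the right by about the shift of the median gene.

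HET muscle at 7 dpi was close in its counts to HOM muscle of that day. Of the 78 members 24 fell and 10 rose on the deposited scale, beside 20.8% of all genes that fell and 19.6% that rose, whereas on the column-total scale 3 fell and 34 rose, beside 7.79% and 38.3% of all genes. The large subunit had 18 falls and 7 rises, and the small subunit 6 falls and 3 rises, on the deposited scale, against 3 falls and 21 rises and 0 falls and 13 rises on the column-total scale. Samples did not overlap for 15 lower and 7 higher members, beside 21.0% and 20.5% of all genes. The column-total median of the members lay 0.05 below that of all genes, with 46 of 78 under it. The count of 34 was 22 without HET AAV replicate 2 or replicate 4.

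Mrps12 rose more in HET muscle than any other member in any AAV comparison on the deposited scale. It had 28.3, 31.6, 37.7 and 32.4 normalised counts in HET AAV muscle, against 15.9, 21.1, 18.2 and 13.2 in HET saline muscle. The groups were far apart, with a log2 change of 0.90 (SE 0.11, adjusted p = 1.38e-08). Mrpl52 had 15.7, 22.7, 19.8 and 18.8 in HET AAV muscle, against 10.9, 13.4, 10.7 and 10.8 in HET saline muscle, a log2 change of 0.70 (SE 0.11, adjusted p = 1.84e-06). Mrps34 at 0.39 (SE 0.10, adjusted p = 0.00157), Mrpl14 at 0.38 (SE 0.16, adjusted p = 0.044) and Mrps18c at 0.35 (SE 0.10, adjusted p = 0.00534) also rose, and all 10 rises held on both scales. Mrps34 overlaps another listed gene on the same strand.

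Of the falls in HET muscle, Mrpl1, Mrpl3 and Mrpl45 held on both scales. Mrpl45, which in mammals ties the large subunit to the inner membrane near the tunnel exit, had 40.7, 33.9, 37.1 and 28.8 in HET AAV muscle, against 50.6, 53.5, 48.1 and 47.7 in HET saline muscle, a log2 change of -0.51 (SE 0.10, adjusted p = 4.37e-05). Mrpl1 had 24.3, 20, 20.7 and 21 in HET AAV muscle, against 31.3, 32.5, 33.9 and 32.5 in HET saline muscle, a log2 change of -0.58 (SE 0.11, adjusted p = 2.20e-05). Both genes had every AAV sample below saline. Mrpl3 changed by -0.51 (SE 0.08, adjusted p = 4.81e-06) and Mrps9 by -0.47 (SE 0.09, adjusted p = 3.82e-05), the last on the deposited scale only. HOM and HET muscle at 7 dpi, which share no samples, had 18 falls in common, or 64.3% of the HOM and 75% of the HET list. They shared 6 rises, or 66.7% and 60%, namely Mrpl33, Mrpl52, Mrpl53, Mrpl57, Mrps12 and Mrps18c. Of all tested genes 2929 fell in HOM and 2714 in HET muscle, and 1910, or 14.7% of those tested, fell in both. For rises the numbers were 2687, 2545 and 1618, or 12.4% of those tested. As shares of the called lists, the overlaps of the members were thus near those of all genes.

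The HOM minus HET difference of the AAV response at 7 dpi called 0 members by limma, with 6 at an unadjusted p under 0.05, beside 0.699% of all genes called higher and 2.54% called lower. On recovered counts edgeR and DESeq2 also called 0. This does not show that the responses were equal, and leaving out HOM saline replicate 4, HET saline replicate 2 or HET AAV replicate 1 or 4 gave 1 call. Mrps27 had 27, 21.5, 21.8 and 18.6 in HET AAV muscle, against 25.9, 29.7, 26.9 and 27.5 in HET saline muscle, so that these samples overlapped where the HOM samples did not.

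In WT muscle, where the protease had no site in titin, limma called 0 members at 3 dpi and 0 at 7 dpi, and 0 of all genes at either day. At an unadjusted p under 0.05 there were 1 and 2 members, and 430 and 210 genes in all, and DESeq2 called 8 and 7 genes among all but 0 members. Mrpl34 had 21.9, 28.2, 24.8, 28.2 and 24.9 in WT AAV muscle at 3 dpi, against 25, 23.7 and 23.8 in WT saline muscle, with the groups overlapping. Mrps27 had 28.9, 29.6, 28.7 and 26.2 in WT AAV muscle at 7 dpi, against 30.6, 31.7 and 29.2 in WT saline muscle, which overlapped slightly.

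At 21 dpi WT muscle also responded. On the deposited scale 9 members fell and 2 rose, beside 21.3% of all genes that fell and 19.7% that rose, a smaller share of members than of all genes in each direction, whereas on the column-total scale 0 fell and 49 rose, beside 5.32% and 45.5% of all genes, a larger share of members rising. Samples did not overlap for 9 lower and 6 higher members, beside 19.9% and 16.4% of all genes. The column-total median of the members was 0.01 above that of all genes. Mrps28 had 21.3, 23.4, 22.5 and 23.4 in WT AAV muscle, against 32.8, 30.2, 29.4 and 29.2 in WT saline muscle, a log2 change of -0.41 (SE 0.11, adjusted p = 0.00183) on the deposited scale. Mrps36 had 38.3, 39.7, 36.1 and 38 in WT AAV muscle, against 52.2, 46.5, 52.8 and 50.6 in WT saline muscle, a log2 change of -0.40 (SE 0.12, adjusted p = 0.00632). Mrpl42 had 131, 133, 120 and 121 in WT AAV muscle, against 157, 165, 166 and 155 in WT saline muscle, a log2 change of -0.35 (SE 0.11, adjusted p = 0.00862). In these genes no AAV sample reached the saline range, and the same genes had the 3 largest falls in HOM muscle that day.

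Mrps15 at -0.33, Mrps18b at -0.26, Mrps5 at -0.25, Mrpl30 at -0.24 and Mrpl16 at -0.23 also fell in WT muscle at 21 dpi on the deposited scale. Of these, Mrps18b, Mrps5, Mrpl30 and Mrpl16 changed sign on the column-total scale. All 9 WT falls were among the 52 of HOM muscle, of which they made up 17.3%. Of all tested genes 3851 fell in HOM muscle and 2770 in WT muscle, and 2286, or 17.6% of those tested, fell in both. The members thus shared a smaller part of their HOM falls with WT muscle than all genes did. Mrps12 (0.27, SE 0.11, adjusted p = 0.0448) and Mrps22 (0.25, SE 0.11, adjusted p = 0.0482) rose on both scales. The count of 11 was 5 without WT AAV replicate 4, and 7 without WT AAV replicate 3 or WT saline replicate 1, and Mrps12 and Mrps22 each lost their call without any of several libraries.

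**Figure D4:**
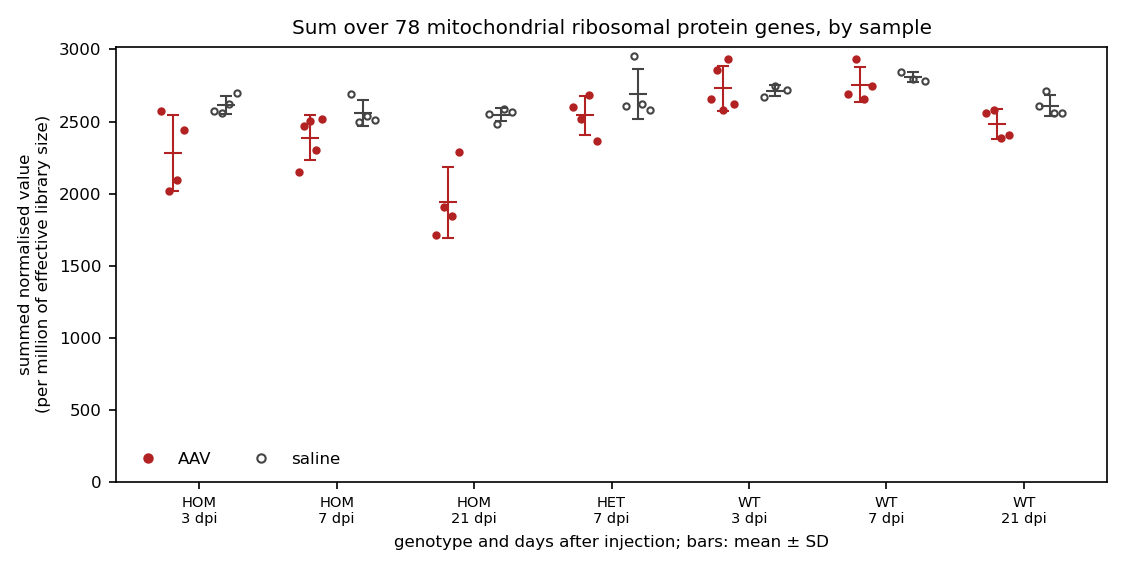
Sum of the normalised counts of the 78 genes in each sample (deposited scale, y axis, from 0) by genotype and day, AAV (filled red) left of saline (open grey), with mean ± SD. On this scale HOM AAV muscle at 21 dpi lies between 1710 and 2291, below its saline samples at 2486 to 2589; on the column-total scale the order of the group means is the other way.

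The summed level of the 78 genes followed the counts. In HOM AAV muscle it was 2282 ± 266, 2389 ± 158 and 1938 ± 249 normalised counts at 3, 7 and 21 dpi, against 2613 ± 62, 2559 ± 91 and 2548 ± 44 in HOM saline muscle (SD, n = 4, except 5 for AAV at 7 dpi). In HET AAV muscle it was 2542 ± 138, against 2692 ± 176 in HET saline muscle (SD, n = 4 each). In WT AAV muscle it was 2731 ± 156, 2756 ± 123 and 2482 ± 102, against 2713 ± 40, 2807 ± 34 and 2611 ± 74 in WT saline muscle (SD, n = 5, 4 and 4 for AAV, and 3, 3 and 4 for saline). On the column-total scale the HOM means were 2641, 2870 and 2536 in AAV muscle, against 2472, 2356 and 2272 in saline muscle, so the members together made up a larger share of the column in AAV muscle. The same held in HET muscle, with 2699 in AAV and 2359 in saline muscle, and in WT muscle at 21 dpi, with 2766 in AAV and 2315 in saline muscle. WT muscle had 2588 in AAV and 2454 in saline muscle at 3 dpi, and 2504 in AAV and 2513 in saline muscle at 7 dpi. At 21 dpi the large subunit summed to 1317 ± 169 in HOM AAV muscle and 1758 ± 31 in HOM saline muscle, and the small subunit to 592 ± 74 in HOM AAV muscle and 737 ± 13 in HOM saline muscle (SD, n = 4 each) on the deposited scale. Per column total the order was the other way, with 1724 in HOM AAV muscle and 1567 in HOM saline muscle for the large subunit, and 775 in HOM AAV muscle and 657 in HOM saline muscle for the small one.

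Whether HOM and WT muscle differed in their response to AAV was tested as an interaction. At 3 dpi 4 of 78 members had a lower response in HOM muscle, near the share of 4.36% of all genes, and 0 a higher one, beside 5.39%. They were Mrpl34 (-0.64, SE 0.19, adjusted p = 0.0252), Mrpl39 (-0.52, SE 0.14, adjusted p = 0.0118), Mrpl15 (-0.48, SE 0.13, adjusted p = 0.0125) and Mrpl49 (-0.46, SE 0.13, adjusted p = 0.0201) on the deposited scale. On the column-total scale 0 were lower and 4 higher, beside 1.51% and 13.2%. The count was 2 without WT saline replicate 3 or HOM AAV replicate 2 or 3, 9 without WT AAV replicate 3, 10 without HOM AAV replicate 1 and 15 without HOM AAV replicate 4.

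At 7 dpi 13 members had a lower and 5 a higher response in HOM than in WT muscle, beside 10.9% and 9.29% of all genes, whereas on the column-total scale 1 was lower and 32 higher, beside 2.96% and 29.6%. Lower on the deposited scale were among others Mrps27 (-0.67, SE 0.16, adjusted p = 0.00268), Mrps18b (-0.61, SE 0.14, adjusted p = 0.00148), Mrpl47 (-0.54, SE 0.16, adjusted p = 0.0134) and Mrps9 (-0.53, SE 0.13, adjusted p = 0.00285). The higher ones included Mrps12 (0.69, SE 0.16, adjusted p = 0.00196), Mrps18c (0.62, SE 0.15, adjusted p = 0.00232), Mrpl52 (0.56, SE 0.16, adjusted p = 0.00961) and Mrpl33 (0.44, SE 0.13, adjusted p = 0.0132). Mrps12 had 15.2, 15.1, 14.7 and 15.4 in WT AAV muscle at 7 dpi, against 20, 16.8 and 18.3 in WT saline muscle. Its WT AAV samples were thus below saline, where the HOM and HET AAV samples were above. The count of 18 was 11 without WT saline replicate 3.

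At 21 dpi 15 members had a lower response in HOM than in WT muscle and 0 a higher one on the deposited scale. The shares of all genes were 3.79% and 1.84%. On the same scale 76 of 78 members had an estimate below 0, as had 6122 of all 13017 tested genes. On the column-total scale 5 were lower and 1 higher, beside 2.18% and 9.46%. On the deposited scale Mrpl47 differed most (-0.75, SE 0.16, adjusted p = 0.00212), with 11.6, 14.7, 13.9 and 15.1 in HOM AAV muscle, against 20.8, 23.3, 20.7 and 19.8 in HOM saline muscle. In WT AAV muscle Mrpl47 had 28.1, 25.4, 20.9 and 21.2, against 22.1, 23.9, 19.8 and 18.9 in WT saline muscle. The HOM groups were apart and the WT groups overlapped. Mrpl42 (-0.67, SE 0.15, adjusted p = 0.00484), Mrpl18 (-0.60, SE 0.14, adjusted p = 0.00528), Mrpl46 (-0.60, SE 0.16, adjusted p = 0.0162), Mrpl12 (-0.54, SE 0.16, adjusted p = 0.0323) and Mrpl41 (-0.53, SE 0.16, adjusted p = 0.0406) also differed. The count of 15 was 9 without WT AAV replicate 1 or 2 or HOM AAV replicate 2 or 3, 37 without HOM AAV replicate 4, and 1 with only the groups compared in the fit. That HOM AAV replicate had a member sum of 2291, against 1710, 1906 and 1846 in the other HOM AAV replicates at 21 dpi.

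HET and WT muscle at 7 dpi differed for 8 of 78 members that were lower and 6 that were higher in HET, beside 9.88% and 10.3% of all genes. The lower share was near that of all genes and the higher one below it. On the column-total scale 1 was lower and 17 higher, beside 4.01% and 19.2%. Mrps12 had the largest difference (1.16, SE 0.16, adjusted p = 1.44e-06), ahead of Mrpl52 (0.71, SE 0.16, adjusted p = 0.00149), Mrps18c (0.58, SE 0.15, adjusted p = 0.00423) and Mrpl33 (0.54, SE 0.13, adjusted p = 0.00295). The lower ones included Mrpl45 (-0.57, SE 0.14, adjusted p = 0.0033), Mrpl1 (-0.53, SE 0.16, adjusted p = 0.0118), Mrpl9 (-0.43, SE 0.13, adjusted p = 0.0123) and Mrps11 (-0.43, SE 0.15, adjusted p = 0.0309) on the deposited scale. This contrast uses the same WT samples as the HOM one. In WT muscle the response at 21 dpi was higher than at 7 dpi for Mrps12 (0.54, SE 0.16, adjusted p = 0.0167) and lower for Mrps18b (-0.43, SE 0.14, adjusted p = 0.0258), which were the 2 calls there, beside 10.5% and 8.63% of all genes, where the column-total scale gave 24 higher and 0 lower, beside 22.9% and 1.77%. Without WT AAV replicate 4 at 21 dpi neither was called, and 1 was left without any of 4 other libraries.

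**Figure D5:**
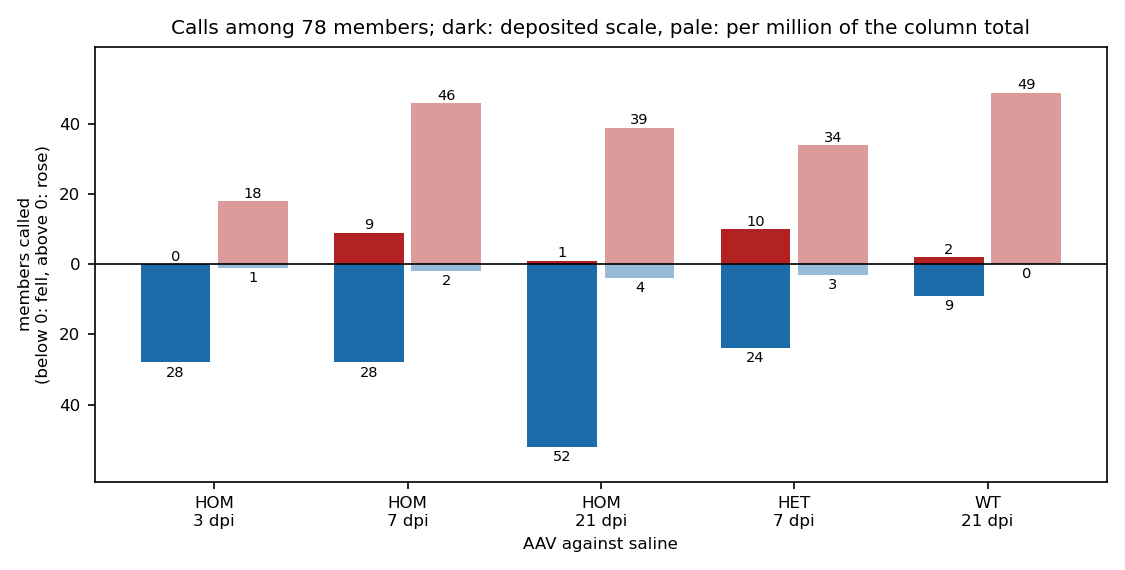
Number of the 78 genes called higher (red, above 0) or lower (blue, below 0) in AAV than in saline muscle, for HOM muscle at 3, 7 and 21 dpi, HET muscle at 7 dpi and WT muscle at 21 dpi; dark bars use the deposited scale and pale bars the column-total scale. The falls of 28, 28 and 52 in HOM muscle become 1, 2 and 4 on the other scale, and the rises of 0, 9 and 1 become 18, 46 and 39.

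Genotype was also compared in saline muscle. Over the 3 days 9 members were lower and 1 higher in HOM than in WT saline muscle, beside 5.04% and 7.31% of all genes. Mrps12 was higher (0.31, SE 0.07, adjusted p = 7.73e-04), and the lower ones included Mrpl34 (-0.24, SE 0.08, adjusted p = 0.0388), Mrpl19 (-0.23, SE 0.06, adjusted p = 0.00253), Mrpl3 (-0.22, SE 0.05, adjusted p = 0.00223) and Mrps27 (-0.21, SE 0.07, adjusted p = 0.0323). The column-total scale gave 6 lower and 2 higher, beside 3.84% and 8.68%. The count of 10 was 5 without WT saline replicate 2 at 3 dpi, 6 without any of 6 other saline libraries, and 20 with only the saline groups compared in the fit. HET against WT saline muscle gave 0 calls among the members by limma, with 3 at an unadjusted p under 0.05, beside 0.131% of all genes called higher and 0.0691% called lower. HOM against HET saline muscle gave 0 calls and 8 unadjusted, beside 3.59% and 1.54% of all genes, and saline muscle at 21 against 3 dpi gave 0 and 9, beside 0.376% and 0.169%. On recovered counts edgeR and DESeq2 also called 0 members in each of these 3 contrasts.

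The Mrps18 paralogs, related genes for proteins at different places on the ribosome, took different courses in HOM muscle on the deposited scale. Mrps18a was not called at 3 or 7 dpi and fell at 21 dpi, with 21.1, 28.7, 26.8 and 34 in HOM AAV muscle, against 41.3, 34, 38.3 and 35.1 in HOM saline muscle (log2 change -0.43, SE 0.12, adjusted p = 0.00231). Mrps18b had a log2 change of 0.03 at 3 dpi, which was not called, and fell at 7 dpi, with 24.6, 23.2, 25.6, 27 and 26.2 in HOM AAV muscle, against 39.7, 34, 33.1 and 32.9 in HOM saline muscle (log2 change -0.45, SE 0.09, adjusted p = 8.57e-05). At 21 dpi it fell by 0.47 on the log2 scale (adjusted p = 4.08e-05). Mrps18c was higher at 7 dpi, with 20.9, 24, 25.3, 22.9 and 21.8 in HOM AAV muscle, against 18, 16.5, 17.4 and 17.5 in HOM saline muscle (log2 change 0.38, SE 0.10, adjusted p = 0.00115), and its changes of 0.05 at 3 dpi and 0.02 at 21 dpi were not called. At 7 dpi the samples of Mrps18b and of Mrps18c did not overlap, in opposite directions. The changes of Mrps18a and Mrps18b at 21 dpi had the opposite sign on the column-total scale, at 0.11 and 0.07.

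Of the members named for a special role or position, Mrpl58 and Mrps30 had small changes at 21 dpi. Mrpl58, in human mitochondria a peptidyl-tRNA hydrolase built into the large subunit that frees stalled chains, had 13, 17, 16 and 20 in HOM AAV muscle at 21 dpi, against 21.1, 20.6, 19.9 and 18.2 in HOM saline muscle, a log2 change of -0.27 (SE 0.11, adjusted p = 0.0265). Mrps30 had 20.4, 24.4, 24.1 and 29.1 in HOM AAV muscle, against 30.2, 28.4, 31.6 and 27.5 in HOM saline muscle, a log2 change of -0.26 (SE 0.09, adjusted p = 0.0149). Both overlapped through AAV replicate 4, and without AAV replicate 1, among others, neither was called. Mrpl41 had 11.5, 10.4, 9.53 and 10.6 in HOM AAV muscle at 21 dpi, against 14.2, 14.3, 14.8 and 11.4 in HOM saline muscle, a log2 change of -0.35 (SE 0.11, adjusted p = 0.00831). With only the HOM groups of 21 dpi in the fit the calls of Mrpl58 and Mrps30 were lost, and with the replicate block added to that fit those of Mrpl41 and Mrps18a were lost too, while the block in the fit over all groups kept all of them. Each had the opposite sign on the column-total scale. Mrpl23 lay between 1.71 and 8.45 normalised counts over all libraries and, like Mrps6, was not called on any HOM day, with log2 changes of 0.20, 0.26 and -0.44 for Mrpl23 and 0.10, -0.17 and -0.05 for Mrps6 at 3, 7 and 21 dpi.

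Other lists of mitochondrial translation genes also had median log2 changes below 0 on each HOM day on the deposited scale. At 7 dpi these medians were lower than the members' -0.07. They were -0.22 for ribosome proteins with other names, -0.31 for assembly genes, -0.29 for translation factors and -0.34 for aminoacyl-tRNA synthetases. Of 5 mitochondrial ribosome proteins with other names, 2, 3 and 4 fell in HOM muscle at 3, 7 and 21 dpi and 0 rose, and none of these falls held on the column-total scale. Of all tested genes 17.2%, 22.5% and 29.6% fell and 17.4%, 20.6% and 29.7% rose on those days on the deposited scale. On both scales 4.71%, 5.98% and 8.61% of all genes fell. At 21 dpi Ptcd3 changed by -0.54 (SE 0.08, adjusted p = 3.80e-07), Chchd1 by -0.52, Dap3 by -0.41 and Gadd45gip1 by -0.36, while Aurkaip1, at -0.08, was not called. Of 23 ribosome assembly genes, 6, 13 and 14 fell and 0, 1 and 0 rose, with 0, 4 and 2 falls on both scales, the last near the share of all genes. Among them were Malsu1 and Fastkd2, both at -0.79 at 21 dpi, and Mterf4, which rose by 0.49 at 7 dpi. Of 16 translation factors and mRNA-binding partners, 9, 9 and 11 fell and 0, 1 and 0 rose, with 3, 3 and 5 falls on both scales. The elongation factor Gfm1 changed by -0.91 (adjusted p = 3.28e-12) and the release factor Mtrf1 by -0.98 (adjusted p = 7.89e-11) at 21 dpi. Of 17 mitochondrial aminoacyl-tRNA synthetases, which load tRNAs with amino acids, 6, 10 and 9 fell and 0, 0 and 1 rose on the deposited scale, with 0, 2 and 2 falls on both scales. Iars2 changed by -0.59 (adjusted p = 8.94e-11) at 21 dpi, and Nars2 rose by 0.45.

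The respiratory chain, whose mitochondrially encoded subunits this ribosome makes, was described by its own lists. All 13 mitochondrially encoded mRNAs fell on each HOM day on the deposited scale, with median log2 changes of -0.52, -0.94 and -1.50, and 2, 13 and 13 fell on both scales. Of 30 nuclear oxidative phosphorylation genes 29, 30 and 30 fell, with medians of -0.51, -0.64 and -1.0, and 18, 18 and 29 fell on both scales. Beside them, 17.2%, 22.5% and 29.6% of all genes fell on the deposited scale and 4.71%, 5.98% and 8.61% on both. The corresponding medians of the members were -0.19, -0.07 and -0.33 on the deposited scale. The 83 cytoplasmic ribosomal protein genes went the other way, with 40, 70 and 47 that rose on both scales, beside 17.4%, 20.6% and 29.7% of all genes. Among 11 regulators of mitochondrial biogenesis, 6 fell and 2 rose at 21 dpi on the deposited scale, beside 29.6% and 29.7% of all genes. Of these changes 2 falls and both rises held on the column-total scale, beside 8.61% and 29.7% of all genes. The coactivator Ppargc1a changed by -1.19 (adjusted p = 4.29e-07), Perm1 by -2.03 (adjusted p = 3.56e-10), Esrra by -0.72 and Gabpa, the DNA-binding part of GABP, by -0.38, while Nrf1, at 0.04, was not called and Myc was higher by 1.15. Mitochondrially encoded mRNAs took 17.4%, 13.7% and 10.8% of the column total in HOM AAV muscle, against 20.7%, 20% and 20.7% in HOM saline muscle.

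Markers of other cell types moved in the same samples. All 12 macrophage markers rose in HOM AAV muscle on each day, in HET AAV muscle at 7 dpi and in WT AAV muscle at 21 dpi, on both scales, and the lowest group mean of any of the 12 was 0.917 normalised counts, for Cd14. Their summed level ran from 316 to 2905 in HOM AAV muscle at 21 dpi, against 41.9 to 101 in HOM saline muscle. By replicate it was 2905, 778, 1104 and 316 in HOM AAV muscle, where the member sum was 1710, 1906, 1846 and 2291. The replicate with most macrophage mRNA had the lowest member sum, and the one with least had the highest, an order that the other days did not share. At 3 dpi the macrophage sum was 748, 958, 999 and 368 by replicate in HOM AAV muscle, where the member sum was 2573, 2019, 2097 and 2439. At 7 dpi it was 443, 499, 314, 511 and 506, where the member sum was 2153, 2470, 2502, 2300 and 2519. Fast fibre genes summed to 65749, 83916, 84579 and 131197 by replicate in HOM AAV muscle at 21 dpi. On that day 9 of 10 were lower than in saline muscle on the deposited scale, of which 6 fell on both scales. Across each group the macrophage sum at 3 dpi was 368 to 999 in HOM AAV muscle, against 74.9 to 171 in HOM saline muscle, and at 7 dpi it was 314 to 511 in HOM AAV muscle, against 73.6 to 115 in HOM saline muscle. In HET AAV muscle it was 235 to 426, against 62.3 to 113 in HET saline muscle, and in WT AAV muscle at 21 dpi 337 to 1096, against 65.6 to 82.2 in WT saline muscle.

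T and natural killer cell markers, of which 8 of 10 could be tested, also moved: 7 of them rose at 7 dpi and 8 at 21 dpi in HOM AAV muscle, and 8 in WT AAV muscle at 21 dpi. Their sum was 53.1 to 203 in HOM AAV muscle at 21 dpi, against 1.33 to 1.64 in HOM saline muscle. Of 6 endothelial markers, 4, 6 and 6 fell in HOM AAV muscle at 3, 7 and 21 dpi on the deposited scale, and 1, 5 and 5 on both scales, with sums at 21 dpi of 118 to 217, against 287 to 351 in HOM saline muscle. Of 6 fibroblast markers 2, 4 and 5 rose and 1 fell at 3 dpi, likewise on both scales, with sums at 21 dpi of 1187 to 1867 in HOM AAV muscle, against 562 to 823 in HOM saline muscle. The 6 proliferation genes rose on every HOM day on both scales. Only 1 of 4 neutrophil markers was in the table, at 0.777 to 21.3 in HOM AAV muscle at 21 dpi, against 0.109 to 0.368 in HOM saline muscle, and 2 of 6 B and plasma cell markers could be tested and rose at 21 dpi only among the HOM days. Of 4 satellite cell and myoblast markers 2, 1 and 3 rose on both scales in HOM AAV muscle, and the 1 that fell at 3 dpi did so on the deposited scale only. Among all tested genes 17.4%, 20.6% and 29.7% rose and 17.2%, 22.5% and 29.6% fell on the HOM days on that scale. The markers above belong to other cell types than the muscle fibre. These cell types express mitochondrial ribosomal protein genes too, and their part in the members' results was not tested.

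Exon length was set beside the changes as a description. Across the 78 members the Spearman correlation between exon length and log2 change was -0.02, -0.29 and -0.12 in HOM muscle at 3, 7 and 21 dpi and -0.21 in HET muscle, beside -0.10, -0.16, -0.05 and -0.09 across 13006 genes. These are descriptions across genes of the same libraries, which are not independent replicates.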

How the data were processed

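The authors deposited a table of normalised read counts, a linear signal: a value is its reads, with 0.5 added, over an effective library size, on a per-million scale. Whole reads came out for 99.999% of values within 0.02 reads, and 0 columns lacked a sample. The submitters' processing notes list FastQC, Bowtie, RSEM, limma and GRCm38/mm10 without versions. RSEM estimates how to split a read that fits more than 1 gene. Per the labels' protocols, muscle was lysed with beads, total RNA was taken up in TRI reagent, and libraries were made with the NEBNext Ultra II Directional kit; how counting treated strand is not given in these sources. Exons of 20 members overlap another listed gene on the opposite strand and 5 on the same strand, which makes their counts less certain.

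Depth was 6.9 M to 27.18 M reads per library, so the spread between samples limits precision. Groups came from the sample titles. Tests used limma 3.58.1 in R 4.3.3, with an intensity trend, on log2(value + 1), which understates changes of low genes. The filter kept the 13017 of 14870 genes whose mean reached 1 when columns are scaled to a per-million total, in 1 fit over 14 groups and 56 samples with 19 comparisons. P-values were adjusted by Benjamini-Hochberg over all tested genes, with calls at 0.05. A member was named if it was among the 8 largest called rises or falls of a HOM or WT AAV comparison, or among the 4 largest of another, along with 11 members chosen for their role. Alternatives were recovered counts in edgeR 4.0.16, DESeq2 1.42.0 and voom, other scalings, filters and pseudocounts, fewer groups, a replicate block, and leaving out each library. The members and gene lists were chosen with earlier results of these data known. The script was tested on simulated data. Gene positions are from GENCODE M21 (GRCm38), in which 14854 identifiers were found. Over 86 pairs of libraries of a group the lowest chi-square per gene was 8.15, so none was a duplicate.

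Same-numbered AAV and saline samples had deviations that correlated at -0.24 to 0.31 over 26 pairs; all pairs of a comparison exceeded 0.1 only in HOM muscle at 21 dpi and HET muscle at 7 dpi.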

Additional observations from a re-analysis of the deposited data

Results flagged for a closer look

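Of 96 groups and measures examined, 5 held a sample far from the rest of its group, about the number that chance gives at 1 in 20. Mrps36 had 40.5 normalised counts in HOM AAV replicate 4 at 21 dpi, where the others had 23.9 to 25.9, and the same library had the highest member sum and the lowest macrophage sum of its group. Mrps9 had 25.3 in HOM AAV replicate 1 at 3 dpi, where the others had 22.1 to 22.4. HET saline replicate 2 had a member sum of 2954, where the others had 2581 to 2622, and 13.4 for Mrpl52, where the others had 10.7 to 10.9. Mrpl34 had 18.9 in HOM saline replicate 3 at 7 dpi, where the others had 17.9.

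Other values are set apart because the response to AAV differed between genotypes or days by the interaction test, on the deposited scale. For HOM minus WT at 3 dpi they are Mrpl34 at -0.64, Mrpl39 at -0.52, Mrpl15 at -0.48 and Mrpl49 at -0.46. At 7 dpi they are Mrps12 at 0.69, Mrps18c at 0.62, Mrpl52 at 0.56, Mrpl33 at 0.44, Mrps27 at -0.67, Mrps18b at -0.61, Mrpl47 at -0.54 and Mrps9 at -0.53. At 21 dpi they are Mrpl47 at -0.75, Mrpl42 at -0.67, Mrpl46 at -0.60 and Mrpl18 at -0.60. For HET minus WT at 7 dpi they are Mrps12 at 1.16, Mrpl52 at 0.71, Mrps18c at 0.58, Mrpl33 at 0.54, Mrpl45 at -0.57, Mrpl1 at -0.53, Mrps11 at -0.43 and Mrpl9 at -0.43. For the HOM response at 7 minus 3 dpi they are Mrpl53 at 0.68, Mrpl57 at 0.58, Mrps27 at -0.58 and Mrps18b at -0.48, and at 21 minus 7 dpi Mrpl51 at -0.73, Mrpl42 at -0.71, Mrps28 at -0.69 and Mrpl14 at -0.67. For the WT response at 21 minus 7 dpi they are Mrps12 at 0.54 and Mrps18b at -0.43. Mrps12, Mrps18c, Mrpl52 and Mrpl33 each had a higher response in HOM and in HET than in WT muscle at 7 dpi, although these contrasts share the WT samples. In 4 of these contrasts the share of members called was near or below that of all genes. They are HOM minus WT at 3 dpi, HET minus WT at 7 dpi, HOM 7 minus 3 dpi and WT 21 minus 7 dpi.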

How the results depend on the processing

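With each column divided by its total, the counts of called members were 19, 48 and 43 in HOM muscle at 3, 7 and 21 dpi, 37 in HET and 49 in WT muscle at 21 dpi, mostly rises. For differences of response they were 4, 33 and 6 for HOM minus WT at 3, 7 and 21 dpi, 18 for HET minus WT with the balance reversed, 9 for HOM 7 minus 3 dpi, 8 for HOM 21 minus 7 dpi and 24 for WT 21 minus 7 dpi, with 1 each for HOM against HET saline and saline 21 against 3 dpi. On that scale Mrpl12 changed sign in HOM muscle at 7 dpi (0.09), Mrpl58 (0.26), Mrps30 (0.28), Mrps18a (0.11), Mrps18b (0.07) and Mrpl41 (0.17) at 21 dpi, and Mrps18b (0.06), Mrps5 (0.07), Mrpl30 (0.09) and Mrpl16 (0.09) in WT muscle at 21 dpi. After quantile normalization the counts were 7 in WT muscle at 21 dpi, 31 for HOM minus WT at 21 dpi, 7 for HOM 7 minus 3 dpi, 29 for HOM 21 minus 7 dpi and 1 for WT 21 minus 7 dpi. A filter at 5 in place of 1 gave 9 for HOM minus WT at 3 dpi. With only the groups compared in the fit, which leaves fewer samples for the spread, the counts were 13 for HOM at 3 dpi, 1 for HOM minus WT at 21 dpi, 1 for HOM minus HET, 1 for HOM 7 minus 3 dpi, 6 for HOM 21 minus 7 dpi, 4 for WT 21 minus 7 dpi, 20 for HOM against WT saline and 3 for saline 21 against 3 dpi. For the rest the cause was not tested.

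The replicate block in the whole fit gave 28, 36 and 53 calls in HOM muscle, 32 in HET and 11 in WT at 21 dpi, and ended only the call of Mrpl34 for HOM minus WT at 3 dpi (-0.59). Combined with a fit of only the groups compared, it gave 35 in HOM muscle at 21 dpi and 32 in HET. In edgeR the counts were 27, 36, 49, 32 and 10 in the same order, in DESeq2 27, 35, 50, 31 and 11, and in voom 28, 33, 51, 33 and 12.

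Leaving out each library gave 18 to 35 calls in HOM muscle at 3 dpi, 30 to 37 at 7 and 45 to 57 at 21 dpi, 22 to 31 in HET, 0 to 0 in WT at 3 and 7 dpi and 5 to 13 at 21 dpi. For HOM minus WT it gave 2 to 15, 11 to 19 and 9 to 37 at 3, 7 and 21 dpi, for HET minus WT 10 to 15, where the 10 without HET AAV replicate 4 had the opposite balance, and for HOM minus HET 0 to 1. It gave 2 to 7 for HOM 7 minus 3 dpi, 8 to 30 for HOM 21 minus 7 dpi and 0 to 3 for WT 21 minus 7 dpi. In saline muscle it gave 5 to 10 for HOM against WT, 0 to 1 for HOM against HET and 0 for the other contrasts. Of 1215 named values so recomputed, 136 lost their call and 0 changed sign, among them Mrpl41 and Mrpl12 at 3 dpi, Mrpl20 and Mrpl12 at 7 dpi and Mrpl58 and Mrps30 at 21 dpi in HOM muscle. Of 1272 under the other settings, 89 lost their call and 10 changed sign. These were uneven between settings. Division by the column total kept 51 of 104 values, with 43 of the lost calls and all 10 changes of sign. With only the groups compared in the fit, 21 of 104 lost their call. Mrpl36 in HOM muscle at 21 dpi, which is outside these tallies, was 0.28 with each column divided by its total. Low genes such as Mrpl23 had too few reads for small changes to be detectable at this depth.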

Other observations

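Some genes that serve mitochondrial DNA and protein import, which the report does not describe, changed in HOM muscle. Of 11 tested genes of mitochondrial DNA transcription and replication, 3, 5 and 6 fell and 0, 1 and 0 rose at 3, 7 and 21 dpi on the deposited scale, with 0, 0 and 2 falls on both scales. At 21 dpi Tfam, which packages and transcribes mitochondrial DNA, changed by -0.67 (adjusted p = 3.36e-07), Tfb2m, its partner at the promoter, by -0.87 (adjusted p = 3.02e-09) and Mterf2 by -1.09 (adjusted p = 3.70e-09). Of 19 import genes, 5, 5 and 9 fell and 0, 3 and 0 rose on the deposited scale, with 0, 2 and 3 falls on both scales. Of all genes 17.2%, 22.5% and 29.6% fell and 17.4%, 20.6% and 29.7% rose on those days, and the column-total median of the import genes lay 0.07, 0.03 and 0.14 below that of all genes, so at 7 dpi the list was near the background. Hspa9, the chaperone that pulls proteins into the matrix, changed by -0.66 (adjusted p = 8.80e-08) at 7 dpi and -0.90 (adjusted p = 2.59e-11) at 21 dpi, and Timm23, the channel of the inner membrane, by -0.81 (adjusted p = 2.32e-11) at 21 dpi. At 7 dpi the small subunits of the import machinery Timm13 at 0.43 and Tomm7 at 0.26, and the receptor Tomm22 at 0.31, rose on both scales.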
